A study of Mus musculus with 3 samples.

Results

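Replicating S-phase tumour cells were 398 of the 14941 tumour-gated cells and of the 28943 cell barcodes in the series. They came from 3 single-cell libraries of tumours seeded in the tibia with LLC1, cells of the mouse Lewis lung carcinoma: 102 cells from the library of DMP1-Cre Mfn2 hosts, 175 from that of DMP1-Cre Rhot1 hosts and 121 from that of WT hosts. Members were chosen by measured values, so those values describe the cells and were put to no test. A tumour-gated cell had 300 genes or more, at most 15% of its UMIs (unique molecular identifiers, 1 per captured transcript) from mitochondrially encoded genes, 5000 UMIs or more, no UMI of the leukocyte gene Ptprc, and 5 UMIs or more of Krt8, Krt18 and Hmga2 together. Each such cell was scored by its summed UMIs of Rrm2, Pclaf, Mcm5, Mcm6 and Uhrf1 per 10000 UMIs. Members lay in the top 10% of that score over the pooled libraries, and their UMIs of Cenpf, Cenpe, Ube2c and Cdc20 per 10000 were at or below the median of tumour-gated cells.

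The hosts were 8 weeks old, and 1000000 LLC cells in 10 µL were placed in the marrow cavity of the right tibia and taken on day 14. Tumours were dissociated with collagenase for 1 h, and live cells were sorted. The Mfn2 hosts carried a deletion of Mfn2, which encodes a GTPase of mitochondrial fusion, and the Rhot1 hosts a deletion of Rhot1, which encodes a GTPase that links mitochondria to motor proteins. Osteocytes are where DMP1-Cre acts, so the injected cells described here should carry neither deletion. The labels name no Cre in WT hosts, and carrying Cre therefore cannot be told apart from either deletion. Each library pooled tumours of 3 mice with no map from cells to mice, and there was 1 library per genotype, so no p-value was computed. All intervals in parentheses are 95% intervals that cover counting error only, not the variation between mice or sorts. Those of gene levels and their ratios treat each UMI as independent, so they also leave out variation between cells and can be too narrow.

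A cell copies its genome once per cycle, in S phase. During G1 the origin recognition complex, Cdc6 and Cdt1 load the Mcm helicase onto origins, and at S-phase entry cyclin E with Cdk2 and the Cdc7 kinase turn the loaded helicase into a moving fork that also holds Cdc45 and the Gins proteins. E2F transcription factors, released from the retinoblastoma proteins, switch on many of these genes together with those for deoxynucleotide supply, and histone genes are transcribed as the new DNA is packaged. Genes of mitosis are switched on later, many of them through a promoter element called the cell cycle genes homology region (CHR).

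The 5 genes of the score each serve replication. Rrm2 is the regulated subunit of ribonucleotide reductase, Pclaf binds the sliding clamp Pcna, Mcm5 and Mcm6 are helicase subunits, and Uhrf1 brings the maintenance methyltransferase Dnmt1 to newly copied DNA. Their promoters are shown because E2F-type letters, one way in which such genes are switched on together, were sought there. Cdc6 is shown as the gene with the highest ratio outside the score, and Cenpa as a centromere gene that was lower in members. Each window runs 5′ to 3′ on the gene's own strand from 250 bases before to 50 bases after the annotated start (RefSeq, GRCm38.p6), so it holds the proximal promoter and the first transcribed bases. Capitals mark matches, on either strand, to the E2F letters TTTCCCGC, TTTCGCGC, TTTGCCGC or TTTGGCGC, and in Cenpa a match to the CHR letters TTTGAA or TTCGAA.
Rrm2, chr12:24708004-24708303, plus strand: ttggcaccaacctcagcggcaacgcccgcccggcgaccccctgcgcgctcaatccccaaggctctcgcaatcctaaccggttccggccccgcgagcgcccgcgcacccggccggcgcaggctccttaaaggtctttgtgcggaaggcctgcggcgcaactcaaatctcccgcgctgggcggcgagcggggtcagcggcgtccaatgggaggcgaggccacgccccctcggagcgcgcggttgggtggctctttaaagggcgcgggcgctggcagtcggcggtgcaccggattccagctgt
Pclaf, chr9:65890073-65890372, plus strand: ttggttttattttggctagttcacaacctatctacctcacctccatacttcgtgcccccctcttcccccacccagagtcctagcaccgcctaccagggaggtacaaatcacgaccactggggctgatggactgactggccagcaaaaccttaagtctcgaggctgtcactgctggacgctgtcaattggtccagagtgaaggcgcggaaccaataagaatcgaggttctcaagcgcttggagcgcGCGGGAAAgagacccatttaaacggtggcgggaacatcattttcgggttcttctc
Mcm5, chr8:75109259-75109558, plus strand: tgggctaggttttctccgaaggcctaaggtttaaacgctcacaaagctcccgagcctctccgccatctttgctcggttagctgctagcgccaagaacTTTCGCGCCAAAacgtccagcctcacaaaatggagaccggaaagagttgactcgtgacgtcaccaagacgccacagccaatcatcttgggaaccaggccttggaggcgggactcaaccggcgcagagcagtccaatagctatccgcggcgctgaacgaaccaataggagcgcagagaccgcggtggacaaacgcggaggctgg
Mcm6, chr1:128359656-128359955, minus strand: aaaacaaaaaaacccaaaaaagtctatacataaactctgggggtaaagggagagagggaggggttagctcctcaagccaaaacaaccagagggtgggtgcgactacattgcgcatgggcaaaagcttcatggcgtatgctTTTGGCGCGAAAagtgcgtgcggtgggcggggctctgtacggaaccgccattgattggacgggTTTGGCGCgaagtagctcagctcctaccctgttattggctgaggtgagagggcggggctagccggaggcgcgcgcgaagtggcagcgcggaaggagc
Uhrf1, chr17:56304063-56304362, plus strand: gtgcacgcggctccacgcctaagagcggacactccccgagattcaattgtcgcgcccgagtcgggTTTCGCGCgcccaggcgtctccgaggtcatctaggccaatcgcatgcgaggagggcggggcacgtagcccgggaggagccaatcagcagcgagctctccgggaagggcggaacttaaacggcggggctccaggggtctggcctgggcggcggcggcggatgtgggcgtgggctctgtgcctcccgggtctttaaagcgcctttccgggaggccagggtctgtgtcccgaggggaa
Cdc6, chr11:98907901-98908200, plus strand: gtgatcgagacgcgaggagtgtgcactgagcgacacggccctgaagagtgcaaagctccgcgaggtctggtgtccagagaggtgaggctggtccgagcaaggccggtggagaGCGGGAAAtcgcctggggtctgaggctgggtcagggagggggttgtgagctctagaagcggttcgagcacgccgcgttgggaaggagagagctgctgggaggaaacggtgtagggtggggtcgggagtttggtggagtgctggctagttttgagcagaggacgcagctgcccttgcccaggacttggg
Cenpa, chr5:30666636-30666935, plus strand: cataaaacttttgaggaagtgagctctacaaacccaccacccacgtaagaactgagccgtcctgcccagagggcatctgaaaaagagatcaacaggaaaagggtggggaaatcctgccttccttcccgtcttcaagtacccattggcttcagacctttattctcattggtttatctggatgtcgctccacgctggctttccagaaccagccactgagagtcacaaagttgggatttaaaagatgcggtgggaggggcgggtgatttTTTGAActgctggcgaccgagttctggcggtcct

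The E2F letters stood in 4 of 6 promoter windows of the 5 score genes, with 2 overlapping matches in Mcm5, 3 in Mcm6, of which a pair overlap, and none in Rrm2. Uhrf1 has a second window, from an upstream start at chr17:56303087-56303386, which held no match and is not printed. They also stood in 37 of 127 windows (29.1%) of the 134 genes outside the rule that were higher in members, of which 109 had a window. The share was 4.31% of 8223 windows of all genes tested, 2.27% of all 32851 windows, and 2.63% (1 of 38) of windows of the genes that were lower in members. The CHR letters stood in 22 of 27 windows (81.5%) of the list of G2 and mitosis genes, against 13.8% of windows of all genes tested, 19.2% of all windows, 20.5% of the genes higher in members and 34.2% of those lower. A match describes the letters of a window and not a bound site.

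By construction members had high scores. Their median score was 13.5 UMIs per 10000 in the Mfn2 library, 13.5 in the Rhot1 library and 13.4 in the WT library, against 2.42, 3.04 and 2.32 in the other tumour-gated cells of the same libraries. The limit was 10.35, the lowest member stood at 10.39 and the highest cell just outside, with mitosis genes at or below their limit, at 10.31. Cells near the limit were common, with 71 members less than 1 UMI per 10000 above it and 78 otherwise eligible cells less than 1 below it, so the class is a range of a score and not a separate type. All 5 score genes had a UMI in 324 members (81.4%), 4 of them in 66, 3 in 7 and 2 in 1. The mitosis limit, 1.86 UMIs per 10000, set aside 1097 of the 1495 cells in the top 10% of the score (73.4%), and 50 members had none of the 4 mitosis genes.

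The score genes were high in each library by choice. Rrm2 stood at 429, 364 and 409 CPM (a class's UMIs of a gene per 1000000 of its UMIs) in members of the Mfn2, Rhot1 and WT libraries, against 106, 109 and 105 CPM in the other tumour-gated cells. Pclaf stood at 445, 464 and 429 CPM in Mfn2, Rhot1 and WT members against 116, 151 and 157 CPM in the others. Mcm5 ranged from 180 to 191 CPM in members against 47.8 to 58.1 CPM, and Uhrf1 from 173 to 210 CPM against 46.8 to 59.1 CPM. Mcm6 was the least separated, at 177, 182 and 205 CPM in Mfn2, Rhot1 and WT members against 76.3, 82.0 and 74.9 CPM in the others. Of the genes that the rule held low, Cenpf, a kinetochore protein, stood at 30.2, 36.1 and 33.2 CPM in Mfn2, Rhot1 and WT members against 201, 234 and 203 CPM in the others.

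Median depth was 16874, 18773 and 19884 UMIs in members of the Mfn2, Rhot1 and WT libraries, against 16048, 16652 and 17474 in the other tumour-gated cells. Rrm2 had a UMI in 100% of Mfn2, 98.9% of Rhot1 and 100% of WT members. In the same libraries it had one in 1.73%, 5.60% and 4.69% of cells with neutrophil markers, which divide little. Those cells were chosen to hold no UMI of Krt8, Krt18 or Hmga2, and their median depths were 1203, 1418 and 1248 UMIs. Their values can therefore understate the free tumour RNA of each suspension. The libraries shared 20 to 35 barcodes by pairs and no member barcode. The tumour gene Krt8, part of the gate, stood at 709, 654 and 655 CPM in Mfn2, Rhot1 and WT members, against 705, 624 and 604 CPM in the other tumour-gated cells. Markers of T, NK, B, dendritic and endothelial cells each summed to at most 6.81 CPM in members of any library, and those of osteoblasts, osteocytes, osteoclasts and erythroid cells to at most 24.5 CPM. Neutrophil markers summed to 138, 86.1 and 87.1 CPM in Mfn2, Rhot1 and WT members, against 182, 104 and 141 CPM in the other tumour-gated cells. Macrophage markers, all 10 detected, summed to 251 to 317 CPM in members against 269 to 312 CPM in the other tumour-gated cells. The 8 fibroblast markers summed to 529, 540 and 727 CPM in Mfn2, Rhot1 and WT members, against 827, 791 and 1767 CPM in the others, with Col1a1 and Col1a2 at 0 in Mfn2 members. Those cells' part in the results was not tested beyond the recount given beside the genes concerned.

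Set beside the other tumour-gated cells, members held more RNA of nearly every step of replication, and the steps did not move alike. Among the genes outside the rule, 134 of 8029 genes at 10 CPM or more (1.67%) were higher by 1.5-fold or more in all 3 libraries, and 43 (0.536%) were lower. These are the calls meant by higher and lower below, made on log2 ratios of CPM with 5 CPM added to each value. The score chose the members within the same cells, so the counts are a description, and the median ratio over all tested genes lay between -0.02 and 0.01 on the log2 scale. The gene lists follow textbook roles, and the genes named from each are its extremes.

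Origin licensing had 9 of 16 measured genes higher and none lower, with list medians of 0.77, 0.84 and 1.01 (log2) in the Mfn2, Rhot1 and WT libraries. Cdc6, which helps load the helicase, stood at 91.1, 85.2 and 84.7 CPM in members of the Mfn2, Rhot1 and WT libraries, against 14.4, 17.8 and 16.5 CPM in the other tumour-gated cells. The groups were far apart in each library, with log2 ratios of 2.31, 1.99 and 2.06. Mcm10, an initiation factor, stood at 61.3 to 74.6 CPM in members against 17.5 to 21.2 CPM in the others. Of the helicase subunits that the score left out, Mcm3 stood at 329, 332 and 325 CPM in Mfn2, Rhot1 and WT members against 132, 144 and 135 CPM in the others, and Mcm7 and Mcm4 were higher as well. Gmnn, the inhibitor that keeps origins from firing again, was also higher, at 197 to 210 CPM against 92.2 to 113 CPM. Not every loading gene was called. Within the recognition complex, Orc6 was higher, at 125 to 144 CPM against 58.9 to 69.1 CPM, while Orc4 stood at 27.9 to 36.7 CPM in members and 32.3 to 34.7 CPM in the others. Dbf4, the activating partner of the Cdc7 kinase, stood at 63.3 to 76.0 CPM in members and 63.2 to 72.1 CPM in the others.

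The fork itself was the list with the most calls, 25 of 33 genes higher, all 33 above the others in every library and medians of 0.94, 0.88 and 0.91 (log2). Clspn, which carries the checkpoint signal at stalled forks, stood at 227, 194 and 157 CPM in members of the Mfn2, Rhot1 and WT libraries, against 49.8, 64.9 and 48.8 CPM in the other tumour-gated cells. Its groups did not overlap in any pairing of libraries. Pcna, the sliding clamp, stood at 282, 290 and 307 CPM in Mfn2, Rhot1 and WT members against 107, 118 and 114 CPM in the others. Rpa2, a subunit of the complex that coats single-stranded DNA, stood at 104 to 112 CPM against 34.0 to 38.2 CPM. The clamp-loading subunit Dscc1 and the helicase partner Gins2 were higher too, at 35.8 to 37.6 CPM against 10.0 to 12.8 CPM and at 78.0 to 92.2 CPM against 32.3 to 35.2 CPM. The smallest differences within the list were those of Gins3, 17.8 to 26.3 CPM in members against 13.4 to 17.0 CPM, and of Rpa3, 31.3 to 34.0 CPM against 20.9 to 26.7 CPM.

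Deoxynucleotide supply was also higher in large part. Of 11 genes, 7 were higher, and list medians were 0.75, 0.71 and 0.87 (log2) in the Mfn2, Rhot1 and WT libraries. Tyms, thymidylate synthase, stood at 127, 129 and 168 CPM in members of the Mfn2, Rhot1 and WT libraries against 58.1, 67.4 and 70.3 CPM in the other tumour-gated cells, and Rrm1, the partner of Rrm2, at 113 to 121 CPM in members against 60.4 to 68.8 CPM. Rrm2b, the reductase subunit used outside S phase and after DNA damage, was not called, at 12.7 to 17.2 CPM in members and 17.2 to 20.6 CPM in the others, nor was Samhd1, which degrades deoxynucleotides, at 50.6 to 66.5 CPM and 48.7 to 56.2 CPM. Synthesis of the ribonucleotide precursors was less marked, with 1 of 15 genes higher, Umps of the pyrimidine pathway, at 88.2 to 97.0 CPM against 53.3 to 56.4 CPM. All 15 nevertheless stood above the others in each library, with medians of 0.40, 0.39 and 0.45 (log2).

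Repair and checkpoint genes of the fork had 14 of 21 higher and medians of 1.02, 0.80 and 0.99 (log2) in the Mfn2, Rhot1 and WT libraries. Ung, the glycosylase that cuts uracil out of DNA, stood at 90.5, 86.7 and 78.4 CPM in members of the Mfn2, Rhot1 and WT libraries against 22.6, 22.9 and 18.7 CPM in the other tumour-gated cells. Exo1, a nuclease of mismatch repair, stood at 48.6 to 64.9 CPM in members against 16.5 to 19.0 CPM in the others, and Brca1 was higher too. Atr, the kinase at the head of this checkpoint, stood at 26.3 to 30.5 CPM in members and 25.4 to 29.5 CPM in the others, and Wee1, which holds back entry into mitosis, at 31.3 to 39.7 CPM and 23.9 to 40.4 CPM. Neither was called.

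Chromatin factors that act behind the fork had 11 of 18 higher. Chaf1b, a subunit of the histone chaperone CAF-1, stood at 111, 98.0 and 93.0 CPM in members of the Mfn2, Rhot1 and WT libraries against 29.4, 33.3 and 29.8 CPM in the other tumour-gated cells. Hells, a chromatin remodeller, stood at 261 to 285 CPM against 87.7 to 106 CPM, and Slbp, which binds the stem-loop of histone mRNA, at 152 to 179 CPM against 80.6 to 88.5 CPM. Asf1a was not called, at 35.8 to 49.5 CPM and 32.0 to 36.7 CPM, whereas its paralogue Asf1b was higher, at 65.7 to 74.3 CPM against 30.1 to 34.0 CPM.

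Of 17 G1/S control genes, 9 were higher. The cyclin E genes were among them, Ccne2 at 68.7, 80.2 and 52.6 CPM in members of the Mfn2, Rhot1 and WT libraries against 18.5, 24.98 and 14.6 CPM in the other tumour-gated cells. E2f1, an activating E2F factor, stood at 119, 109 and 107 CPM in Mfn2, Rhot1 and WT members against 37.4, 40.9 and 34.8 CPM in the others, and the repressor E2f7 at 29.3 to 39.1 CPM against 9.04 to 12.03 CPM. None of the cyclin D genes, which act earlier in G1, was called: Ccnd3 stood at 75.8 to 84.4 CPM in members and 52.6 to 58.2 CPM in the others, Ccnd1 stood at 334 to 386 CPM in members and 311 to 362 CPM in the others, and Ccnd2 at 221 to 253 CPM and 201 to 257 CPM. Fbxo5, which holds back the anaphase-promoting complex during S phase and belongs to none of the lists, stood at 87.2, 77.3 and 87.1 CPM in Mfn2, Rhot1 and WT members against 30.1, 32.1 and 29.6 CPM in the others. Among inhibitors and genes of quiescence, 0 of 12 were called higher or lower in all 3 libraries. In each library 9 of them stood below the others and 1 above. Cdkn1b, which encodes p27, stood at 28.5, 26.3 and 22.6 CPM in Mfn2, Rhot1 and WT members against 44.4, 44.2 and 43.7 CPM in the others and missed the fold in 1 library or more.

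**Figure D1:**
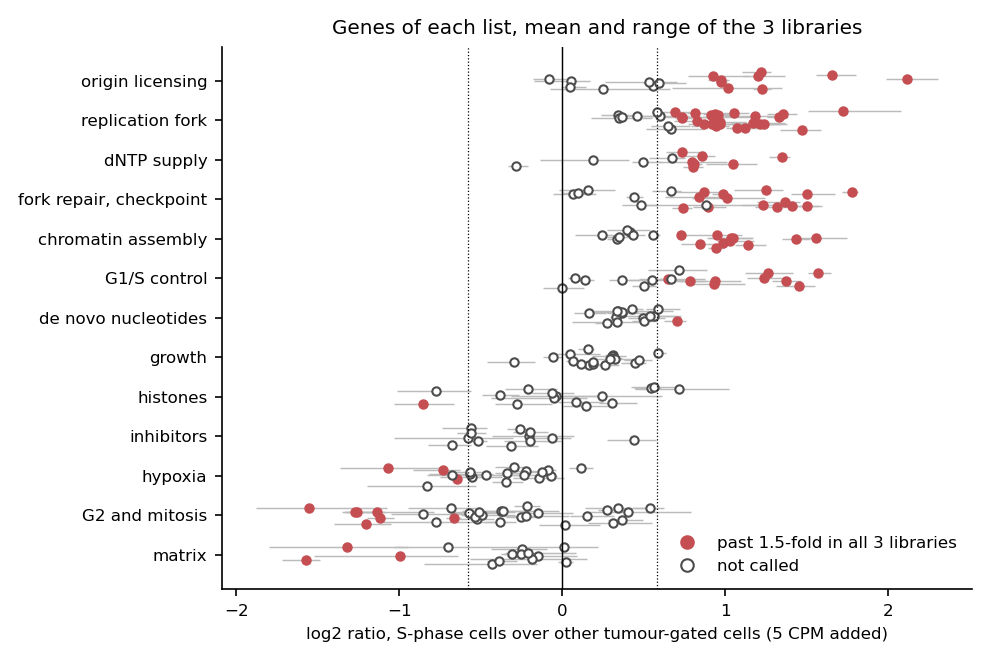
Each point is 1 gene, placed at the mean of its log2 ratio of S-phase cells over other tumour-gated cells in the 3 libraries, with a line from the lowest to the highest library; dotted lines mark the 1.5-fold limit and filled points passed it in all 3. Most genes of the replication lists lie to the right of 0, with Cdc6 farthest, and a few such as Rrm2b and Orc4 to the left, and G2 and mitosis genes, Ndrg1 and matrix genes extend to the left.

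Of 18 genes of growth, 0 were called in either direction. Myc stood at 94.4 to 97.0 CPM in members and 109 to 135 CPM in the other tumour-gated cells, and the nucleolar gene Ncl at 1707, 1798 and 1954 CPM in members of the Mfn2, Rhot1 and WT libraries against 1353, 1499 and 1538 CPM in the others. Of 19 hypoxia genes, 3 were lower, Slc2a1, Ankrd37 and Ndrg1, and 17 stood below the others in each library. Ndrg1, a hypoxia-induced gene, stood at 126, 114 and 98.5 CPM in members of the Mfn2, Rhot1 and WT libraries against 273, 196 and 261 CPM in the others. Slc2a1, the glucose transporter, stood at 108, 75.5 and 71.2 CPM in Mfn2, Rhot1 and WT members against 174, 119 and 139 CPM in the others.

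Matrix genes had 3 of 14 lower, Fn1, Dcn and Lum, the last a collagen-binding proteoglycan at 8.94, 13.02 and 47.5 CPM in members of the Mfn2, Rhot1 and WT libraries against 34.1, 46.4 and 168 CPM in the other tumour-gated cells. Few members carried it, 6 of 102 in the Mfn2, 18 of 175 in the Rhot1 and 34 of 121 in the WT library. With cells high in Lum, Dcn and Mmp3 left out of the gate, a recount chosen after the values were seen, the mean ratio of Lum was -0.30 on the log2 scale in place of -1.57. That gate removes Lum itself by construction, and with the other score genes named below the mean was -0.75. Sat1, which acetylates polyamines for export, was lower at 214, 153 and 125 CPM in Mfn2, Rhot1 and WT members against 422, 308 and 275 CPM in the others. Pnrc1, a nuclear receptor coactivator, stood at 61.6 to 65.4 CPM against 123 to 127 CPM, and the long noncoding RNA Neat1 at 257 to 306 CPM against 484 to 583 CPM.

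Genes of G2 and mitosis had 7 of 30 lower, Aurka, Nusap1, Prc1, Plk1, Hmmr, Ccnb1 and Kif20a, and none higher. Hmmr, a spindle-associated protein, stood at 24.6, 15.1 and 15.04 CPM in members of the Mfn2, Rhot1 and WT libraries against 57.4, 68.9 and 60.5 CPM in the other tumour-gated cells. Cenpa, the centromeric histone H3 variant whose promoter is shown above, stood at 55.9, 60.7 and 61.7 CPM in Mfn2, Rhot1 and WT members against 154, 176 and 160 CPM in the others. The list was not low throughout. Top2a, which untangles copied DNA, stood at 474, 432 and 389 CPM in members of the Mfn2, Rhot1 and WT libraries against 322, 385 and 330 CPM in the others, and Cdk1 at 96.8 to 114 CPM against 77.0 to 87.3 CPM. The rule itself limited 4 genes of mitosis: without that limit the mean list median was 0.22 on the log2 scale in place of -0.42.

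To place members along the cycle, the remaining cells were divided by the same 2 sums. Cells with the score in the top 10% but mitosis genes above their limit numbered 1097, cells in the top 10% for mitosis without a high score 510, 586 and 391 in the Mfn2, Rhot1 and WT libraries, and cells at or below the median for both 2031, 1604 and 1811. Members differed from the first of these, which share the high score, in some early genes and in late genes. Ung stood at 90.5, 86.7 and 78.4 CPM in members of the Mfn2, Rhot1 and WT libraries, against 37.6, 43.0 and 40.3 CPM in score-high cells above the mitosis limit. Cdc6 stood at 91.1, 85.2 and 84.7 CPM in Mfn2, Rhot1 and WT members against 54.9, 54.9 and 55.6 CPM in those cells. Intervals of counting error did not overlap for either gene in any library, for example 67.8 to 90.1 CPM against 35.9 to 45.0 CPM for Ung in the WT library. Both were far lower in mitosis-high cells, at 3.203 to 3.68 CPM for Ung and 5.86 to 6.33 CPM for Cdc6. Ung and Cdc6 had been named for their high ratios in members, and not every early gene followed them. Ccne1 was highest, among these states, in score-high cells above the mitosis limit in the Mfn2 and WT libraries, and in members in the Rhot1 library.

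Late genes ran the other way. Summed over the G2 and mitosis list, members of the Mfn2, Rhot1 and WT libraries held 2299, 2227 and 2084 CPM, score-high cells above the mitosis limit 3593, 3526 and 3520 CPM, and mitosis-high cells 6342, 6544 and 6497 CPM. Of that list 29 of 30 genes were highest in mitosis-high cells in all 3 libraries, and none in members. The sum of 4 mitosis genes had sorted these states, so the order of this list was in large part set by the sorting. Members were the highest of the 4 states in every library for 7 of 16 licensing genes, 8 of 33 fork genes, 8 of 21 repair genes, 5 of 18 chromatin genes, 4 of 17 G1/S genes and 1 of 11 deoxynucleotide genes. The highest state differed between libraries for 8, 20, 11, 8, 11 and 6 genes of these lists, in the same order. The share over all genes was not counted, and 6513 cells outside the 4 states were not ranked. Not all replication genes peaked in members. Tyms stood at 127, 129 and 168 CPM in members of the Mfn2, Rhot1 and WT libraries against 155, 162 and 170 CPM in score-high cells above the mitosis limit. Summed fork genes did not part in one direction, at 2907, 2920 and 2850 CPM against 2795, 2963 and 2798 CPM.

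**Figure D2:**
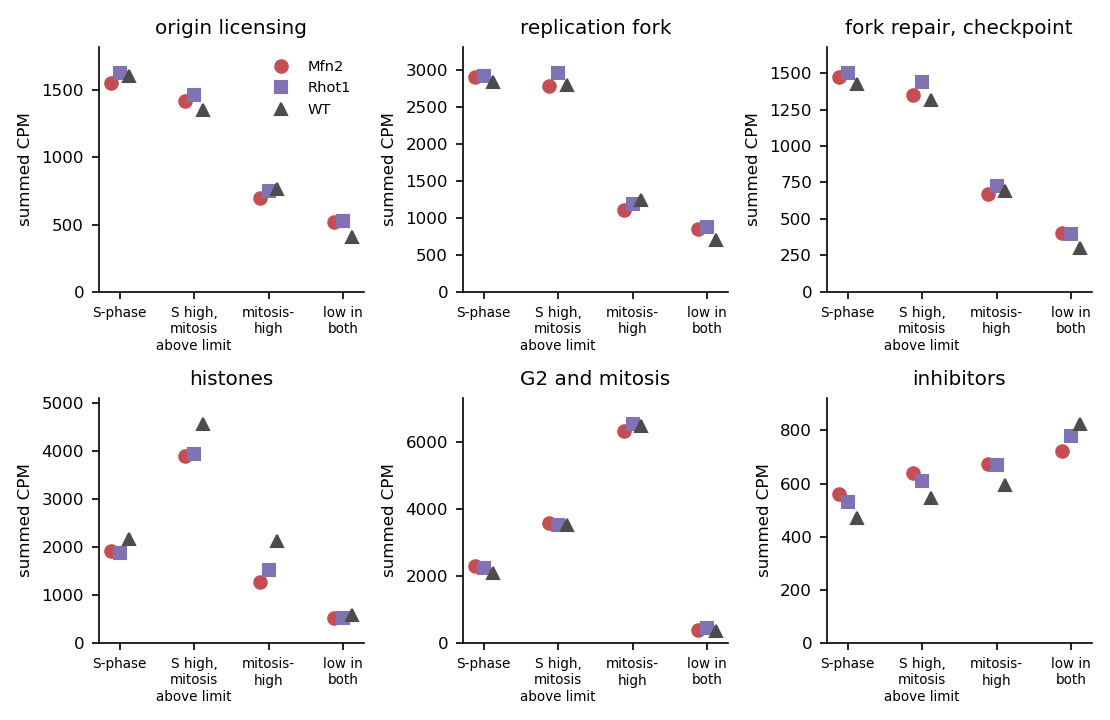
Summed CPM of 6 gene lists in S-phase cells, score-high cells above the mitosis limit, mitosis-high cells and cells low in both, with 1 point per library. Licensing RNA is highest in S-phase cells (1552 to 1626 CPM), histone RNA in score-high cells above the mitosis limit (3895 to 4565 CPM) and G2 and mitosis RNA in mitosis-high cells (6342 to 6544 CPM).

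Histone RNA is the check of the label that the rule did not use, since replication-dependent histone genes are expressed while DNA is copied. Most of their mRNA has no poly(A) tail and the 3′ kit captures tails, so levels are those of the captured part, and close copies of a histone gene can share reads. Compared with all other tumour-gated cells, 0 of 15 measured histone genes were higher and 1 was lower, H1f2, at 59.8, 63.3 and 56.2 CPM in members of the Mfn2, Rhot1 and WT libraries against 113, 104 and 120 CPM. The comparison by state gave a wider view. Summed histone RNA stood at 1914, 1877 and 2163 CPM in members of the Mfn2, Rhot1 and WT libraries, against 3895, 3953 and 4565 CPM in score-high cells above the mitosis limit and 526, 514 and 587 CPM in cells low in both. Members thus lay between these 2 states in each library. Mitosis-high cells held 1265, 1525 and 2132 CPM in the Mfn2, Rhot1 and WT libraries, so WT members stood close to them. All other tumour-gated cells together held 1511, 1719 and 1852 CPM. Score-high cells above the mitosis limit had the highest level for 12 of 15 histone genes in all 3 libraries. H1f5, a linker histone, stood at 352, 416 and 381 CPM in Mfn2, Rhot1 and WT members against 740, 971 and 883 CPM in score-high cells above the mitosis limit.

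The middle level was an average of unlike cells. A histone level above 10.55 UMIs per 10000, the 90th percentile of cells low in both, was reached by 195 of 398 members (49.0%), whereas 386 (97.0%) passed the same percentile for licensing genes and all 398 for fork genes. By library the share was 54.9% (44.7 to 64.8) in Mfn2, 46.3% (38.7 to 54.0) in Rhot1 and 47.9% (38.8 to 57.2) in WT members, with overlapping intervals. In score-high cells above the mitosis limit it was 83.1%, 82.3% and 82.2%, and in mitosis-high cells 30.4%, 33.8% and 40.2%. Histone-high members had medians of 27.8, 29.5 and 32.4 histone UMIs per 10000 in the Mfn2, Rhot1 and WT libraries, against 3.60, 4.86 and 4.21 in histone-low members. Replication genes were thus high in nearly every member, partly through the score itself, and histone RNA above the level of cells low in both was found in 49.0% of them. DNA content was not analysed here.

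**Figure D3:**
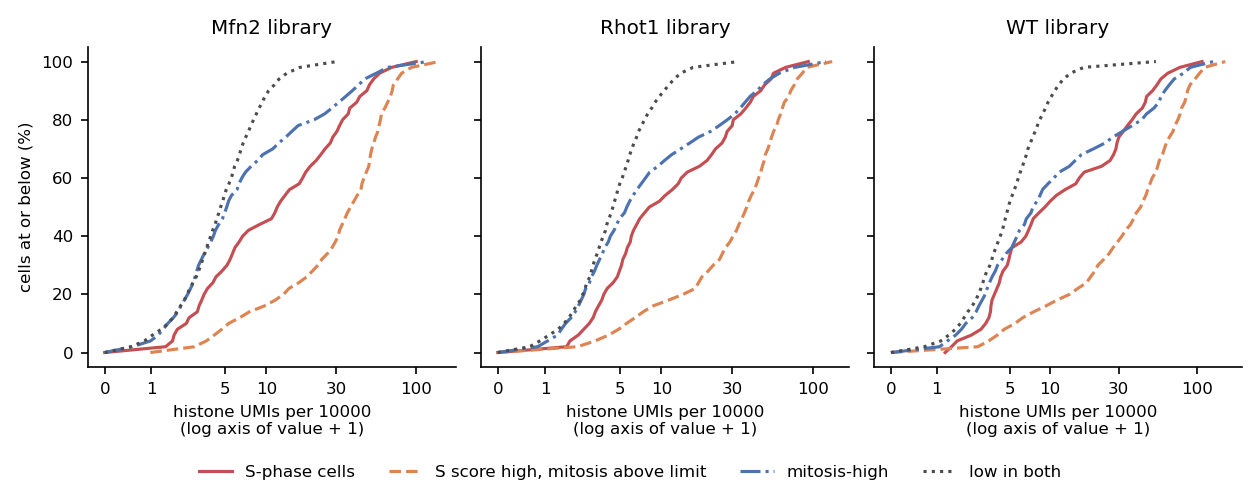
Cumulative share of cells (y axis, percent) at or below a histone level (x axis, UMIs per 10000, log axis of value + 1) in each library, for S-phase cells and the 3 other cycle states. S-phase cells lie between the score-high cells above the mitosis limit, of which 82.2 to 83.1% pass 10.55, and the cells low in both.

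This split, made after the values were seen, separated other genes in all 3 libraries. Ccna2, the cyclin A gene of S phase and G2, stood at 83.4, 78.5 and 87.3 CPM in histone-high members of the Mfn2, Rhot1 and WT libraries, against 38.4, 36.8 and 36.9 CPM in histone-low members. Top2a stood at 539, 549 and 486 CPM in histone-high members of the Mfn2, Rhot1 and WT libraries against 390, 314 and 285 CPM in histone-low members. Licensing genes in sum did not part in one direction, at 1479, 1614 and 1629 CPM in histone-high against 1647, 1638 and 1582 CPM in histone-low members of the 3 libraries. Median depth of histone-high members was also greater, 17002, 19801 and 21253 UMIs in the Mfn2, Rhot1 and WT libraries against 16612, 17105.5 and 19000 UMIs in histone-low members, and its part in the split was not tested.

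The study compared hosts, and S-phase cells took a different share of the tumour-gated cells in each library. They were 1.90% (1.55 to 2.30) in the Mfn2 library, 3.34% (2.87 to 3.86) in the Rhot1 library and 2.80% (2.33 to 3.34) in the WT library, by exact Clopper-Pearson intervals. The Mfn2 share was 0.677 times the WT share (0.522 to 0.878), and the Rhot1 share 1.19 times (0.949 to 1.497), an interval that holds 1. The lower Mfn2 share depended on which genes defined S phase. With Mcm2, Mcm3, Mcm4, Mcm7 and Pcna as the score, the shares were 4.03%, 5.70% and 3.73% in the Mfn2, Rhot1 and WT libraries, and Mfn2 no longer stood below WT. Leaving out cells high in Lum, Dcn and Mmp3, the shares were 2.78% in the Mfn2, 4.16% in the Rhot1 and 4.14% in the WT library, so that the Rhot1 share then lay close to that of WT, a log2 ratio of 0.007.

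The neighbouring states give the context of these shares. Score-high cells above the mitosis limit were 5.84% of tumour-gated cells in the Mfn2, 8.28% in the Rhot1 and 8.08% in the WT library. Mitosis-high cells were 9.48% in the Mfn2, 11.2% in the Rhot1 and 9.05% in the WT library, so the lower Mfn2 value was not seen for mitosis-high cells, with a ratio to WT of 1.05 (0.924 to 1.19). Cells low in both were 37.8%, 30.6% and 41.9% in the Mfn2, Rhot1 and WT libraries. Among cells at or below the mitosis limit alone, members were 3.66% in the Mfn2, 7.34% in the Rhot1 and 5.25% in the WT library, giving ratios to WT of 0.698 (0.539 to 0.903) and 1.40 (1.117 to 1.75). Thinned to 5000 UMIs per cell, the shares of tumour-gated cells were 5.43%, 7.50% and 6.39% in the Mfn2, Rhot1 and WT libraries, with the limit then at 10 UMIs per 10000.

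**Figure D4:**
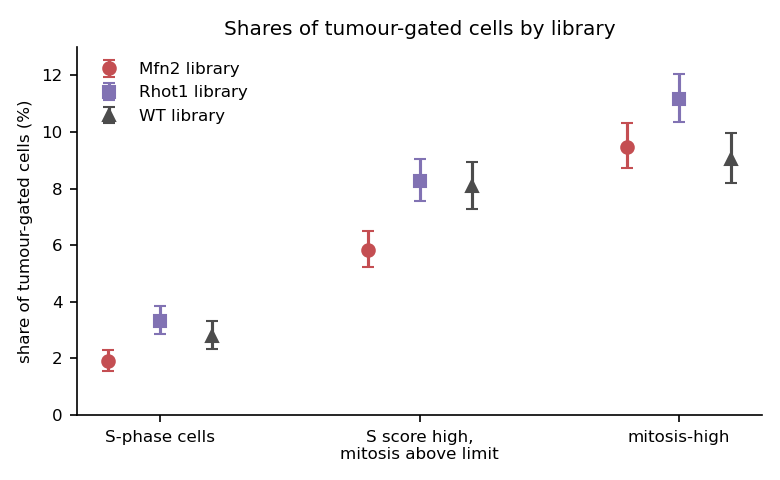
Share of tumour-gated cells (y axis, percent) in S phase, score-high above the mitosis limit, and mitosis-high, for the Mfn2, Rhot1 and WT libraries; bars are exact 95% intervals of counting error. S-phase cells take 1.90% in the Mfn2, 3.34% in the Rhot1 and 2.80% in the WT library.

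Few replication genes of members passed the fold between hosts. Of the licensing, fork, deoxynucleotide, repair, chromatin and G1/S lists, none of the genes passed 1.5-fold for Mfn2 over WT and 1 did for Rhot1 over WT. That gene was Tonsl, a factor that binds newly copied chromatin, at 28.1 CPM in Rhot1 against 17.0 CPM in WT members. Over all genes at 10 CPM or more, 197 of 7926 (2.49%) were higher and 126 (1.59%) lower in Mfn2 than in WT members, and 103 (1.3%) were higher and 70 (0.883%) lower in Rhot1 than in WT members. Both comparisons use the same WT library. Among the 3077 genes at 50 CPM or more, where counts are larger, 26 were higher and 16 lower for Mfn2, and 10 higher and 14 lower for Rhot1. The medians of the 6 replication lists lay between -0.12 and 0.08 (log2) for Mfn2 over WT and between -0.09 and 0.08 for Rhot1 over WT, beside 0.01 and 0.03 for all tested genes. Members of every library passed the same score limit, so their replication RNA was alike in part by choice. In the other tumour-gated cells the 6 medians lay between -0.09 and 0.12 for Mfn2 over WT. For Rhot1 over WT they lay between 0.09 and 0.20 there, beside 0.02 and 0.07 for all tested genes.

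The highest named genes have no known part in replication, and for several the ratio lay nearer 1 in the other tumour-gated cells than in members. Named genes were picked for extreme ratios in members, which by itself favours ratios nearer 1 in cells not used for the picking. Whether the gap is a trait of S-phase cells was not tested. Prxl2a, a redox-active protein related to peroxiredoxins, stood at 158 CPM in Mfn2 and 171 CPM in Rhot1 members against 59.4 CPM in WT members, ratios of 2.66 (2.18 to 3.27) and 2.88 (2.40 to 3.47). In the other tumour-gated cells the ratios were 4.08 and 2.97. Cpe, a carboxypeptidase that processes prohormones, stood at 138 CPM in Mfn2 and 118 CPM in Rhot1 against 60.2 CPM in WT members, and Gap43, a growth-cone protein, at 75.4, 50.9 and 30.9 CPM in Mfn2, Rhot1 and WT members. Ratios in the other tumour-gated cells were 1.83 and 1.63 for Cpe and 1.51 and 1.54 for Gap43, for Mfn2 and for Rhot1 over WT. Mt1, a metal-binding metallothionein, was higher in Mfn2 alone of the pair of knockout hosts, at 1295 CPM against 712 CPM in WT members, and stood at 835 CPM in Rhot1 members. Of 2318 Mt1 UMIs in Mfn2 members, 264 came from 1 cell, and its ratio in the other tumour-gated cells was 1.24 for Mfn2 and 0.786 for Rhot1 over WT. Ecm1 and Gpnmb were also higher in Mfn2 members, with ratios of 2.26 (1.76 to 2.92) and 1.94 (1.56 to 2.43), against 1.77 and 1.75 in the other tumour-gated cells. For Rhot1 over WT the named genes were Plet1, Dkk2, a secreted modulator of Wnt signalling, and Mtss1, with ratios of 1.83, 1.62 and 1.63 in members, against 1.24, 1.73 and 1.13 in the other tumour-gated cells.

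Among genes lower than in WT members, matrix genes recurred. Col6a3, a collagen VI chain, stood at 51.4 CPM in Mfn2 and 67.2 CPM in Rhot1 against 125 CPM in WT members, and ratios in the other tumour-gated cells were 0.351 and 0.421. Of 14 matrix genes, 1 was higher (Thbs1) and 4 were lower (Col6a3, Fn1, Lum and Mmp3) for Mfn2 over WT, and 4 were lower (Col6a3, Fn1, Lum and Col6a2) for Rhot1 over WT. Of the 41 Thbs1 UMIs in Mfn2 members, 10 came from 1 cell. The fibroblast markers given above share Lum, Dcn, Mmp3, Col3a1, Col1a1 and Col1a2 with the matrix list, so they are no separate measure. They summed to 529 CPM in Mfn2 and 540 CPM in Rhot1 against 727 CPM in WT members. Col3a1 gave 584 of their 947 UMIs in Mfn2 members. The part of fibroblast RNA in these genes was not tested. Cxcl1, a neutrophil-attracting chemokine, stood at 102 CPM in Mfn2 and 91.8 CPM in Rhot1 against 197 CPM in WT members, where 71 of 498 UMIs came from 1 cell. The ribosomal RNA-like gene Rn18s-rs5 stood at 4126, 4614 and 7272 CPM in Mfn2, Rhot1 and WT members, and as a copy of a repeated sequence its count is uncertain, as is that of Mir6236, at 48.6, 56.5 and 97.4 CPM. Tmem176b stood at 50.9, 57.7 and 95.8 CPM in the Mfn2, Rhot1 and WT libraries.

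Ccnb2, cyclin B2 of mitosis, had the ratio nearest 1 in the other tumour-gated cells among the genes named for Mfn2 over WT. It stood at 42.5 CPM in Mfn2 and 51.8 CPM in Rhot1 against 75.6 CPM in WT members, ratios of 0.562 (0.425 to 0.737) and 0.685 (0.555 to 0.846), while those of the other tumour-gated cells were 0.987 (0.958 to 1.02) and 1.02 (0.986 to 1.05). Since members were limited in 4 other mitosis genes, this is a value within a narrow range of mitosis RNA, and the difference between both ratios was not tested across animals. Ccnb2 was also picked for its ratio in members, which by itself favours a ratio nearer 1 in the other cells. The rest of the G2 and mitosis list held 2 higher genes, Ncapg and Ccnf, and 1 further lower gene, Ect2, for Mfn2 over WT, and none for Rhot1 over WT.

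A few genes of antigen presentation, interferon and stress passed the fold. For Rhot1 over WT, 3 of 17 class I presentation genes were lower, Psme2, Psmb8 and Psmb9, which encode a proteasome activator and immunoproteasome subunits, and for Mfn2 over WT 1 was, Psmb9. Psme2 stood at 74.9 CPM in Rhot1 against 129 CPM in WT members, a ratio of 0.5804 (0.491 to 0.686), against 0.786 in the other tumour-gated cells. Of 7 interferon genes, Isg15 and Cxcl10 were lower in both knockout libraries, Isg15 at 13.4 CPM in Mfn2 and 17.2 CPM in Rhot1 against 34.4 CPM in WT members, where 24 of its 87 UMIs came from 1 cell. Most of the Cxcl10 UMIs of WT members, 33 of 58, came from 1 cell. Cxcl10 had 5 UMIs in Mfn2 and 17 in Rhot1 members, so it passed the 10 CPM filter only through WT members. Its call as lower was thus in part set by that filter. Of 17 dissociation-related genes, 5 were lower for Rhot1 over WT, Atf3, Zfp36, Fosb, Fos and Dusp1, and 1 was higher, Hspa1b, with 33 of its 65 UMIs in 1 Rhot1 cell. The list median was -0.27 (log2) in members and -0.26 in the other tumour-gated cells. For Mfn2 over WT, 1 of these genes was higher, again Hspa1b, with 15 of its 38 UMIs in 1 Mfn2 cell, and 0 were lower. Fosb, an AP-1 factor, stood at 118, 50.6 and 107 CPM in Mfn2, Rhot1 and WT members, and Nfkbia, the inhibitor of NF-kB, at 422, 340 and 590 CPM. Genes of this kind respond to tissue digestion, and its part in their values was not tested. Cdkn1a, which encodes the inhibitor p21, was higher in Mfn2 members at 113 CPM against 71.2 CPM in WT members, as was Sat1 at 214 CPM against 125 CPM, with ratios in the other tumour-gated cells of 1.48 and 1.54.

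**Figure D5:**
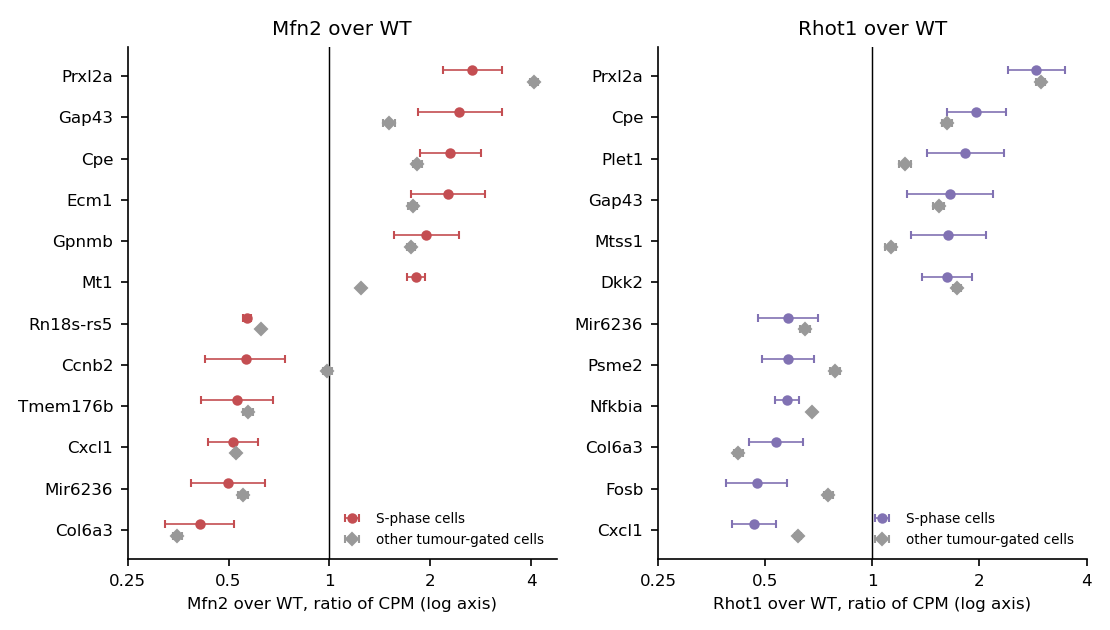
Ratio of CPM (log axis) for Mfn2 over WT (left) and Rhot1 over WT (right), in S-phase cells (circles) and other tumour-gated cells (diamonds), for the 6 highest and 6 lowest named genes; bars are 95% counting intervals. Prxl2a lies highest in both panels, and Ccnb2 is at 0.562 in S-phase cells and 0.987 in the other cells for Mfn2 over WT.

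The targeted genes were read in members only as a description, since the injected cells should carry no deletion and a 3′ tag can lie outside a deleted part. Mfn2 stood at 11.2 CPM in Mfn2, 15.1 CPM in Rhot1 and 13.9 CPM in WT members (6.83 to 17.3, 11.2 to 19.9 and 9.65 to 19.3). Rhot1 stood at 22.9, 25.2 and 21.8 CPM in the Mfn2, Rhot1 and WT libraries, all within each other's intervals. Dmp1, the osteocyte gene whose promoter drives the Cre, had no UMI in any member, which allows up to 1.68 CPM in Mfn2, 0.888 CPM in Rhot1 and 1.19 CPM in WT members at 3 counts.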

How the data were processed

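The authors deposited raw UMI counts per gene and cell, 1 filtered matrix of 55357 genes for each of 3 libraries, output of Cell Ranger 7.0.0 (stated per the file headers), with mm10 named in the submitters' processing notes. Which annotation was counted, and whether introns were, was not given in the sources used here. Counts of each gene were summed over the cells of a class in a library and expressed as CPM of that class. Genes with a mean of 10 CPM or more were tested for size, with log2 ratios after adding 5 CPM, and called at 1.5-fold, for members over other tumour-gated cells in all 3 libraries in the same direction. With 1 library per genotype, values carry exact Poisson or binomial intervals and no p-value. Members summed to 1789480 UMIs in the Mfn2, 3378726 in the Rhot1 and 2527042 in the WT library. Doublets were marked with Scrublet (308, 221 and 254 cells of the Mfn2, Rhot1 and WT libraries) and kept; an alternative removed them.

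Named genes were the 12 with the highest and 8 with the lowest ratio over other tumour-gated cells in their weakest library at 50 CPM or more, 6 and 6 for each genotype, and the extremes of each list. Genes of the rule, mitochondrial, ribosomal, haemoglobin and immunoglobulin genes were left out. The members and lists were chosen with earlier results of these data known. Promoter windows came from RefSeq on GRCm38.p6. Scripts used Python 3.11.15, scanpy 1.11.5, scipy 1.17.1 and pandas 2.3.3. The ratios were checked on simulated Poisson counts, which hold no added variation between cells.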

Additional observations from a re-analysis of the deposited data

How the results depend on the processing

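There were 16 alternative settings, of which some recounted shares alone. Those that recounted genes changed the sign of none of the genes ranked highest or lowest over other tumour-gated cells or between genotypes. The further genes named as extremes of a list were not recounted singly. The share of S-phase cells for Mfn2 over WT was -0.563 on the log2 scale and 0.114 with the other score genes, a reversed direction, with -0.799 to -0.207 elsewhere; that for Rhot1 over WT was 0.253 and 0.614. Genes higher and lower in members than in other tumour-gated cells numbered 60 and 12 at 50 CPM, 204 and 28 without the mitosis limit; 68 were lower with 1 CPM added, 26 lower after thinning, and 88 higher with the other score genes. For Mfn2 over WT, higher and lower genes numbered 26 and 16 at 50 CPM, 380 and 293 without a filter, 394 and 219 with 1 CPM added, 518 and 320 in the top 5%, 79 and 51 in the top 20%, 83 and 29 without the mitosis limit, and 335 and 193 after thinning. For Rhot1 over WT they numbered 10 and 14, 212 and 150, 250 and 126, 280 and 141 (top 5%), 55 and 30 without the mitosis limit, and 287 and 120 after thinning, with 179 higher under the other score genes. The top 5% held 54, 92 and 63 members in the Mfn2, Rhot1 and WT libraries, against 102, 175 and 121 in the main setting. Thinning gave 292, 393 and 276 members of 5000 UMIs each. The cause of these moves was not tested.

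The median of G2 and mitosis genes reversed without the mitosis limit (0.222 against -0.421 for members over others; -0.032 for Rhot1 over WT). It was -0.039 for Rhot1 and -0.231 for Mfn2 over WT with the other score genes, and -0.017 for Mfn2 after thinning. The deoxynucleotide list for Mfn2 over WT was 0.050 without Lum, Dcn and Mmp3-high cells. That gate and the share among cells at or below the mitosis limit were chosen after seeing the data. Each genotype rests on 1 library of pooled mice, so the spread between animals is unknown. No paired analysis was possible because the groups have 1 library each.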

Other observations

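The lists not described above held few calls in S-phase cells. None of 10 mitochondrially encoded genes, 9 interferon genes, 18 class I presentation genes or 17 dissociation-related genes was called over the other tumour-gated cells, and of 9 polyamine genes Sat1 alone was lower. Of 8 genes of DNA sensing 1 was higher, Cgas, the sensor that makes cyclic GMP-AMP on double-stranded DNA. It stood at 19.0, 13.9 and 15.4 CPM in members of the Mfn2, Rhot1 and WT libraries, against 5.77, 7.04 and 6.61 CPM in the other tumour-gated cells. Its partner Sting1 was not called, at 18.4, 18.7 and 22.6 CPM in Mfn2, Rhot1 and WT members against 23.6, 26.6 and 27.0 CPM in the others.

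Cells that carry Ptprc, and so lie outside the gate, also reached the score limit. At 5000 UMIs or more they did so in 46 of 879 (5.23%) in the Mfn2 library, 79 of 1074 (7.36%) in the Rhot1 library and 92 of 1231 (7.47%) in the WT library. Of these, 15, 28 and 32 in the Mfn2, Rhot1 and WT libraries had mitosis genes at or below their limit.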
